A study of Mus musculus with 18 samples.

Results

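The fibroblast growth factor (FGF) pathway was followed through 38 genes, chosen by symbol among the 24346 gene symbols listed for every library. They are 18 secreted FGFs, the 4 FGF homologous factors, the 4 receptor genes *Fgfr1* to *Fgfr4*, 9 feedback genes of the ERK kinase cascade (the Sprouty, Spred, *Dusp4* and *Dusp6* genes) and the 3 ETS transcription factors *Etv1*, *Etv4* and *Etv5*. RNA-seq had been done in 2 female hybrid mouse embryonic stem (ES) cell lines to ask what loss of the histone demethylase KDM6A does before and after differentiation as embryoid bodies (EB) without leukemia inhibitory factor (LIF). The *Tsix*-stop line comes from a cross with *Mus castaneus* (*cast*), its other parent being the strain of the pseudo-129 genome to which the authors assigned reads, and carries a transcriptional stop in *Tsix* on the X chromosome that is not *cast*, which all of its groups share. It gave 2 wt, 2 *Kdm6a* KO and 1 CRISPR control library at D0 (ES cells) and the same numbers at D15. The E8 line comes from a BL6 × *cast* cross and gave 2 wt and 2 KO libraries at D7 and at D15.

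Some limits of these groups as models bear on every comparison. Per the methods, the *Tsix*-stop KO is a homozygous deletion of internal exons carried by 2 clones, the control is 1 transfected clone that was not edited, and the E8 KO is a homozygous promoter deletion in 1 clone, so that in E8 the deletion and the clone cannot be told apart. The labels do not say which *Tsix*-stop KO library is which clone. ES cells were kept with LIF on inactivated mouse embryonic fibroblasts. Replicates are those named in the labels. For *Tsix*-stop wt the methods call them biological, and for E8 at these days nothing says that they were separate cultures, so p-values measure only the spread between these libraries, which may be technical in E8.

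FGF ligands bind receptor tyrosine kinases together with heparan sulphate, and the receptors pass the signal through RAS to the kinase ERK. ERK in turn switches on its own brakes: Sprouty and Spred proteins inhibit RAS and RAF, DUSP4 and DUSP6 remove phosphate from ERK, and ETV4 and ETV5 are transcription factors of the same response. In ES cells FGF4 is the ligand through which the cells drive their own exit from the naive state, and LIF with serum holds that exit back.

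*Kdm6a* itself was read first. In *Tsix*-stop cells it was at 54.1 and 85.7 TPM (transcripts scaled to a fixed library sum) in the wt pair, 55.6 and 21.2 in the KO pair and 53.7 in the control at D0, and at 64.3 and 48.9 (wt), 41.6 and 12.8 (KO) and 43.5 (control) at D15. KO replicate 2 was the lowest on both days, while KO replicate 1 lay within the range of wt at D0 and just below the control at D15. The deletion leaves most exons in place, so a gene-level count does not check it, and the difference did not pass the test on either day (log2 -0.97 ± 0.61 (SE), edgeR adjusted p = 0.343, and log2 -1.03 ± 0.61 (SE), edgeR adjusted p = 0.224). In E8 it was at 46.7 and 47.2 TPM in wt and 0.00969 and 0.0319 in KO at D7, and at 47.8 and 47.5 and 0.0199 and 0.00578 at D15. The total count per *Tsix*-stop library ran from 51091152 to 68796179, and the depth of the E8 libraries is unknown.

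Throughout, levels are TPM of the diploid transcript, and "rose" or "fell" is kept for a difference of at least 2-fold with an adjusted p of at most 0.1. The test was edgeR's quasi-likelihood test on the counts in *Tsix*-stop and limma on log2(TPM + 1) in E8. There the added 1 understates the change of low genes. Log2 differences and folds are those of these fits, so they can differ from ratios of the TPM printed. Of the 38 genes, 25 passed the filter on low values in *Tsix*-stop, and the same 25 passed in E8. The 13 that did not were *Fgf2*, *Fgf6*, *Fgf7*, *Fgf9*, *Fgf12*, *Fgf14*, *Fgf16*, *Fgf18*, *Fgf20*, *Fgf21*, *Fgf22*, *Fgf23* and *Spry3*, which reached at most 4.14 TPM in *Tsix*-stop and 1.97 TPM in E8. The highest of their counts was that of *Fgf2*, with 164 counts in the CRISPR control at D0 against 8 and 8 in wt and 36 and 13 in KO. *Spry3* had 0 counts in every library, and *Fgf6* and *Fgf20* had no more than 1 count in any *Tsix*-stop library, under the 3 counts below which a level is not distinguished from 0. In *Tsix*-stop, *Spry4*, *Fgf5*, *Fgf8*, *Dusp4*, *Spred3* and *Etv4* passed the filter only through D15 libraries, and *Fgf1* only through KO libraries. These genes could be tested only because they were high there, so their rises toward those groups are not independent of the filter. *Fgf8* and *Spred3* would not have passed without the wt D15 libraries, so their lower KO levels at D15 are not independent of it either. In E8, *Spred3* passed only through KO libraries, *Fgf1* only through wt D15 libraries and *Fgf11* only through D15 libraries, and the same limit holds for them. The same filter acts on all genes. In bulk RNA, fewer cells of a type and less RNA per cell cannot be told apart.

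The promoters of *Dusp6*, *Spred1* and *Spry2* are shown because they belong to feedback genes that were higher in *Kdm6a* KO in at least 1 comparison below. Each run is 300 bases of the RefSeq promoter table (GRCm38.p6), from 250 bases before to 50 bases after the start site, 5′ to 3′ on the gene's strand. They lie at chr10:99262981-99263280 (+) for *Dusp6*, chr2:117120821-117121120 (+) for *Spred1* and chr14:105896770-105897069 (-) for *Spry2*. Capitals mark CCGGAA or its reverse complement TTCCGG, one of the sequences bound by ETS factors such as ETV4 and ETV5. Shorter or variant sites were not searched for.
Dusp6: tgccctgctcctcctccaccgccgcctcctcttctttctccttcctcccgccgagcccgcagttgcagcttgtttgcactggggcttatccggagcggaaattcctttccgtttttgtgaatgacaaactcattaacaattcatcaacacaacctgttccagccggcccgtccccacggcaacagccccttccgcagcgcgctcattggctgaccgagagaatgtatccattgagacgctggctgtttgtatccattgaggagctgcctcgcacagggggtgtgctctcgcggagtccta
Spred1: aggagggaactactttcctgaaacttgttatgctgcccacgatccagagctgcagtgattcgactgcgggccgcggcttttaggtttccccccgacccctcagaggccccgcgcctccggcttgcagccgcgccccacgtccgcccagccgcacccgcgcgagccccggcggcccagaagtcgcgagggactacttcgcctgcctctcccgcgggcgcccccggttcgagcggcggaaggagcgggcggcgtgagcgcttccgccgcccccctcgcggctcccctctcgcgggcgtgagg
Spry2: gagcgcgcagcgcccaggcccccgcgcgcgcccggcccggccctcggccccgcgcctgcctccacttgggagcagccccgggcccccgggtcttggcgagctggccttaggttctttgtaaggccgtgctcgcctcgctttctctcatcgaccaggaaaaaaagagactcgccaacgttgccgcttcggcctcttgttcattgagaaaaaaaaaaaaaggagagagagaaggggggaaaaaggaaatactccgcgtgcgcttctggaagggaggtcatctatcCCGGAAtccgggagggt
*Spry2* holds 1 match, which starts at base 284, and *Dusp6* and *Spred1* hold none of this sequence. It was found in 14.9% of the 32851 promoters in the table and in 4 of the 27 members with an entry (*Fgf5*, *Fgf12*, *Fgfr4* and *Spry2*). The table had no entry for *Fgf1*, *Fgf8*, *Fgf15*, *Fgf16*, *Fgf17*, *Fgf20*, *Fgfr1*, *Spry3*, *Spry4*, *Dusp4* or *Etv4*.

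Differentiation of wt *Tsix*-stop cells was read before the KO. From D0 to D15, 14 of the 25 tested genes rose and 5 fell, where 24.2% of all tested genes rose and 13.6% fell. The rises include those of the genes named above that passed the filter only through D15 libraries. The median log2 change was 1.37 over the 25 genes and 0.02 over all genes. Feedback and ETS genes gave 7 of the 14 rises and 1 of the 5 falls among their 11 tested members. *Spry4* climbed from 0.138 and 0.328 TPM to 21.5 and 18 (log2 6.26 ± 0.74 (SE), edgeR adjusted p = 0.00012). Its D0 level rests on 13 and 26 counts. *Dusp4*, the nuclear ERK phosphatase, went from 1.49 and 2.08 to 73.3 and 74.7 TPM (log2 5.21 ± 0.29 (SE), edgeR adjusted p = 3.22e-06). *Dusp6*, the cytoplasmic one, went from 2.11 and 3.01 to 58.7 and 49.2 TPM (18.9-fold). Among the ETS factors, *Etv4* rose from 0.553 and 0.638 to 32.4 and 34.1 TPM, while *Etv5* fell from 201 and 220.2 to 77.9 and 74.5 (log2 -1.63 ± 0.10 (SE), edgeR adjusted p = 4.52e-06). *Spry1* went from 13.3 and 13.3 to 76.0 and 78.2 TPM (log2 2.37), *Spred1* from 5.66 and 6.77 to 32.1 and 21.7 (log2 1.95) and *Spred3* from 0.593 and 0.598 to 5.46 and 4.57 (log2 2.90). The libraries of both days stood apart for each of these genes, and *Etv4* and *Etv5*, close relatives, moved in opposite directions.

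Of the 8 tested ligands 3 rose and 3 fell in wt. *Fgf4*, the ligand of naive cells, was the most abundant FGF of wt ES cells per length at 360.4 and 378 TPM and fell to 153 and 154 (log2 -1.43 ± 0.15 (SE), edgeR adjusted p = 4.92e-05). *Fgf5*, a marker of the post-implantation epiblast, rose from 0.202 and 0.312 to 18.1 and 17.0 TPM (log2 5.93 ± 0.40 (SE), edgeR adjusted p = 5.97e-06). *Fgf8*, a ligand of gastrulation, rose from 1.87 and 2.67 to 26.7 and 28.1 TPM, and its close relative *Fgf17* fell from 11.9 and 14.2 to 3.86 and 4.95. *Fgf3* fell as well, from 10.1 and 10.2 to 2.80 and 3.15 TPM, and *Fgf1* rose from 0.24 and 0.385 to 1.25 and 0.883 (log2 1.61). Of the intracellular homologous factors, which bind sodium channels rather than receptors, *Fgf11* rose from 2.54 and 1.70 to 11.9 and 9.26 TPM and the X-linked *Fgf13* fell from 20 and 17.3 to 9.37 and 8.54. *Fgfr1* stayed the most abundant receptor per length on both days (61.7 and 75 and then 72.8 and 75.4 TPM) and did not pass the test. The other 3 receptors rose, *Fgfr3* the most (log2 3.54 ± 0.42 (SE), edgeR adjusted p = 9.08e-05), and *Fgfr2* without wt D0 replicate 1 was no longer called (edgeR adjusted p = 0.167). With the CRISPR control counted as wt, 16 of these 19 changes over time were called. Those of *Fgf17* (log2 -0.48, edgeR adjusted p = 0.584), *Spred1* (log2 0.85, adjusted p = 0.216) and *Fgf1* (log2 0.86, adjusted p = 0.128) were lost, and *Fgf17* in the control itself was at 28.5 TPM at D0 and 35.5 at D15.

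**Figure D1:**
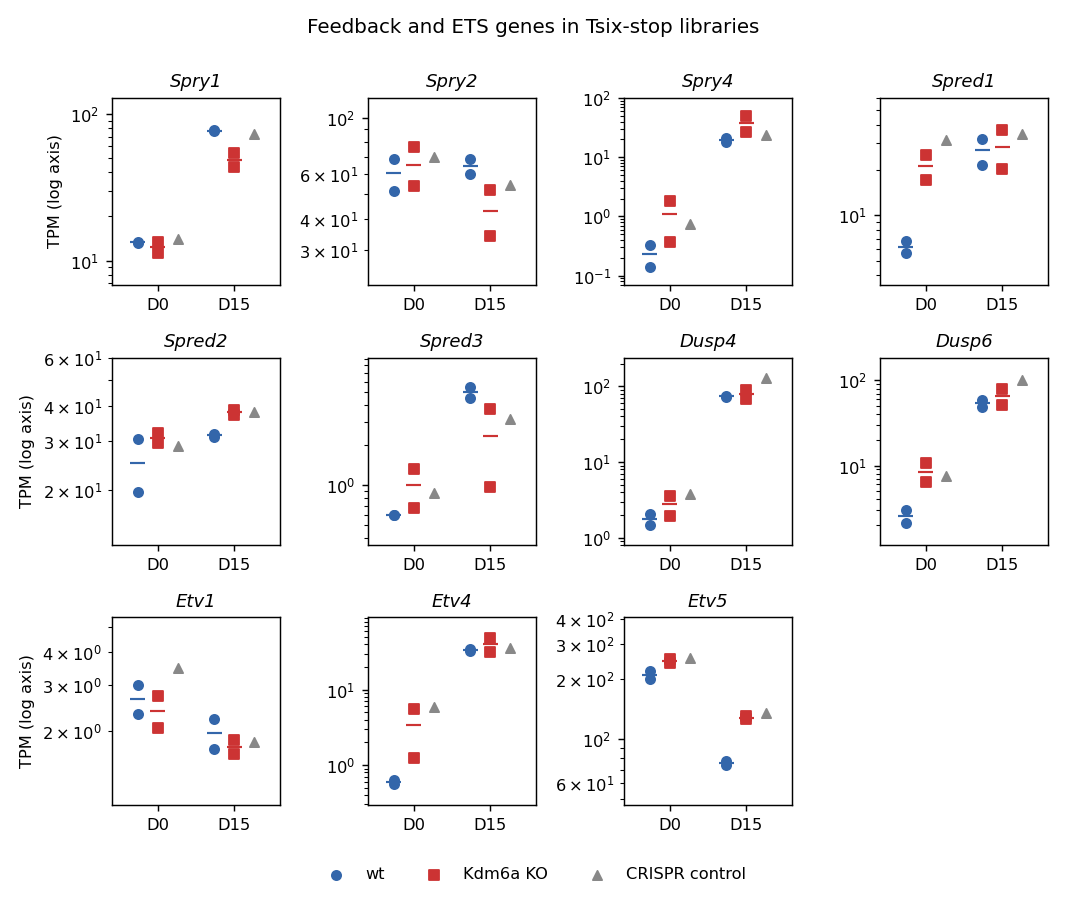
TPM on a log axis of 11 feedback and ETS genes in the *Tsix*-stop libraries at D0 and D15, 1 point per library (blue circles wt, red squares KO, grey triangles CRISPR control) and a short line at the mean of each pair. *Spry4*, *Dusp4*, *Dusp6* and *Etv4* are low at D0 and high at D15 in every genotype, and at D0 *Spred1*, *Dusp6* and *Etv4* are lowest in both wt libraries, with the control beside or above the KO libraries.

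At D0 the comparison asks whether ES cells without KDM6A already differ. Of the 25 tested genes 7 rose in KO and 1 fell, where 3.09% of all tested genes rose and 4.98% fell. The median log2 difference was 0.43 over the 25 genes and -0.01 over all genes. Feedback and ETS genes gave 4 of the 7. *Spred1*, an inhibitor of RAS signalling, was at 5.66 and 6.77 TPM in wt and 17.0 and 25.3 in KO (log2 1.65 ± 0.29 (SE), edgeR adjusted p = 0.0097). *Dusp6* was at 2.11 and 3.01 TPM in wt and 6.38 and 10.6 in KO (log2 1.62 ± 0.29 (SE), edgeR adjusted p = 0.00976). *Etv4* was at 0.553 and 0.638 TPM in wt and 1.25 and 5.61 in KO (log2 2.4 ± 0.61 (SE), edgeR adjusted p = 0.0371). The KO pair was above the wt pair in all 3, and for *Etv4* the KO libraries differed more from each other than the lower one did from wt. *Spry4* was at 0.138 and 0.328 against 0.376 and 1.83 TPM, a difference just inside the threshold (adjusted p = 0.0983 in edgeR). The remaining 7 feedback and ETS genes did not pass, among them *Spry1* at 13.3 and 13.3 against 11.2 and 13.4 TPM, *Spry2* at 51.5 and 69 against 53.8 and 76.8 and *Spred2* at 19.5 and 30.5 against 29.5 and 32.1. *Dusp4* was at 1.49 and 2.08 against 1.96 and 3.58 TPM, *Spred3* at 0.593 and 0.598 against 0.671 and 1.33, *Etv1* at 2.32 and 3 against 2.73 and 2.06, and *Etv5* at 201 and 220.2 against 239.9 and 254. For the abundant *Etv5* the groups were separate but only 1.08-fold apart in the edgeR fit on normalized counts.

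Among ligands and receptors at D0, *Fgf1*, which binds every FGF receptor, was at 0.24 and 0.385 TPM in wt and 1.39 and 2.88 in KO (log2 2.66 ± 0.43 (SE), edgeR adjusted p = 0.00657). Behind these levels stand 26 and 35 and 127 and 276 counts. *Fgf10*, a ligand of limb and lung outgrowth, was the one gene that fell, from 9.99 and 12 TPM in wt to 2.18 and 4.45 in KO (log2 -1.85 ± 0.32 (SE), edgeR adjusted p = 0.00943). *Fgf11* rose from 2.54 and 1.70 to 4.23 and 5.74 TPM (2.15-fold) and *Fgfr3* from 1.25 and 0.88 to 3.79 and 1.92 TPM (2.46-fold). *Fgf4* was at 378 and 309 TPM in KO, overlapping wt, and so was *Fgf8* at 0.618 and 2.07 against 1.87 and 2.67. *Fgf13* was at 20.8 and 19.7 against 20 and 17.3 TPM, and *Fgf5* at 0.0477 and 0.16 against 0.202 and 0.312. *Fgfr2* gave 13.2 and 4.57 TPM in KO on either side of the wt pair (6.58 and 9.97), so the KO libraries differed more from each other than from wt. *Fgfr1* was at 69.9 and 49.6 TPM in KO and *Fgfr4* at 2.29 and 5.46 TPM in KO, against 2.71 and 2.00 for *Fgfr4* in wt. *Fgf3* was at 13.2 and 16.6, *Fgf17* at 22.1 and 19.3 and *Fgf15* at 6.61 and 5.32 TPM in KO, each above its wt pair and short of the threshold.

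The unedited CRISPR control stood with the KO libraries at D0. For 6 of the 8 genes called there the control was at or beyond the nearer KO library, and for the other 2 it was between wt and KO. Its level was 31.7 TPM for *Spred1*, above both KO libraries, 5.96 for *Etv4*, 7.58 for *Dusp6*, 0.742 for *Spry4*, 2.56 for *Fgfr3* and 3.39 for *Fgf10*. The genes between were *Fgf1* (0.807 TPM in the control) and *Fgf11* (3.33). With the control counted as a further wt library, edgeR called 0 of the 25 genes at D0, 3 had an unadjusted p under 0.05, and the calls over all genes went from 1060 to 17. The control is 1 clone, and what part of the D0 differences goes with transfection, cloning or the deletion was not tested. Without wt D0 replicate 1 the count of 8 became 5, and without wt D0 replicate 2 it became 4, with *Etv4*, *Fgfr3* and *Spry4* lost both times. *Etv4* and *Fgf11* were also lost without KO D0 replicate 2, *Fgfr3* without KO D0 replicate 1 or either wt D15 library, and *Spry4* without any one library other than KO D0 replicate 1. The edgeR adjusted p of the lost calls was then 0.128 to 0.187 for *Etv4*, 0.173 to 0.204 for *Fgf11*, 0.119 to 0.314 for *Fgfr3* and 0.132 to 0.638 for *Spry4*. *Fgf1*, *Fgf10*, *Spred1* and *Dusp6* kept their calls without any one library.

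At D15 most of the genes called were ligands, 5 of 7. Of the 25 tested genes 4 rose in KO and 3 fell, where 3.81% of all tested genes rose and 11.1% fell, and 0 of the 11 tested feedback and ETS genes were among them. Over the 25 genes the median log2 difference was 0.04, against 0.00 over all genes. *Fgf17* was at 3.86 and 4.95 TPM in wt and 37.9 and 45.8 in KO (log2 3.25 ± 0.23 (SE), edgeR adjusted p = 0.000117). *Fgf15*, the mouse counterpart of human FGF19 and an intestinal hormone in adults, was at 6 and 6.29 TPM in wt and 38.1 and 32.2 in KO (log2 2.52 ± 0.25 (SE), edgeR adjusted p = 0.000365). *Fgf1* was at 1.25 and 0.883 TPM in wt and 7.05 and 5.48 in KO (log2 2.56 ± 0.40 (SE), edgeR adjusted p = 0.0023). For each of these ligands the lower KO library was several times the higher wt library. *Fgf13* was at 9.37 and 8.54 TPM in wt and 20.3 and 20.1 in KO (log2 1.18 ± 0.16 (SE), edgeR adjusted p = 0.00115), and the KO pair had been at 20.8 and 19.7 at D0. *Fgf10* was again lower in KO, at 2.90 and 4.15 TPM against 14.6 and 11.7 (log2 -1.90 ± 0.32 (SE), edgeR adjusted p = 0.00331). *Fgf8* was at 26.7 and 28.1 TPM in wt, and its KO libraries, at 0.801 and 10.4, were both lower but far from each other (log2 -2.32 ± 0.88 (SE), edgeR adjusted p = 0.0733). It would not have passed the filter without the wt D15 libraries, so this fall is not independent of the filter. *Fgfr3* was at 14.1 and 14.1 TPM in wt and 4.42 and 8.44 in KO (2.20-fold lower, edgeR adjusted p = 0.0458). The call of *Fgf8* was lost without either wt library of either day or without KO D0 replicate 2 (edgeR adjusted p = 0.103 to 0.205), and that of *Fgfr3* without either wt D15 library or KO D15 replicate 1 (edgeR adjusted p = 0.146 to 0.211).

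**Figure D2:**
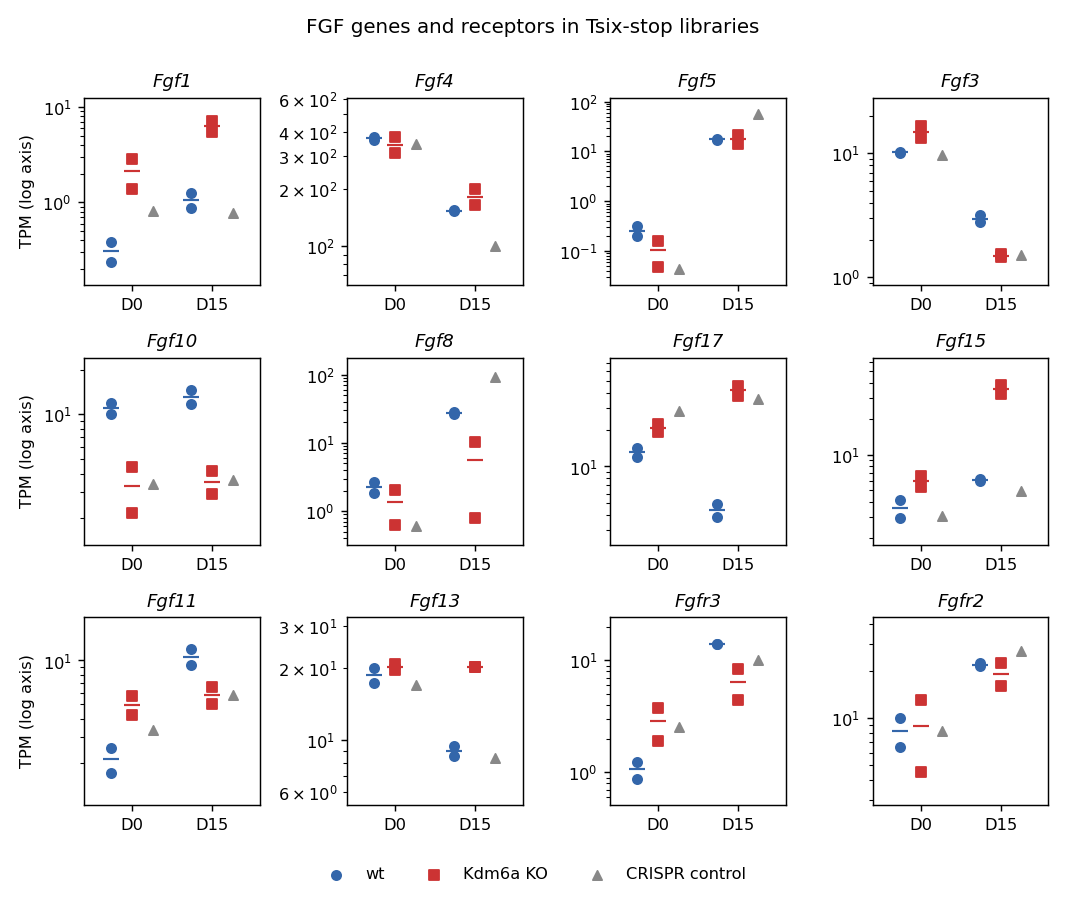
TPM on a log axis of 8 secreted FGFs, 2 homologous factors and 2 receptors in the *Tsix*-stop libraries at D0 and D15, with points and lines as in the plot of feedback genes. At D15 *Fgf17*, *Fgf15*, *Fgf1* and *Fgf13* are higher in both KO libraries than in both wt libraries, and the control lies near KO for *Fgf17* and *Fgf10* and near wt for *Fgf15*, *Fgf1* and *Fgf13*.

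The other genes at D15 were not called. *Etv5* was 1.69-fold higher in KO (131 and 126 against 77.9 and 74.5 TPM, edgeR adjusted p = 0.00117), which is under 2-fold. *Spry1* was at 43.3 and 53.8 against 76.0 and 78.2 TPM and *Spry2* at 34.1 and 51.7 against 68.9 and 59.9, both lower in KO by less than 2-fold. *Fgfr1* was at 39.5 and 51.5 against 72.8 and 75.4 TPM. *Fgf11* and *Fgf3* were also lower in KO by less than 2-fold, *Fgf11* at 6.56 and 5.01 against 11.9 and 9.26 TPM and *Fgf3* at 1.53 and 1.46 against 2.80 and 3.15. *Dusp4* was at 68.2 and 88.4, *Dusp6* at 51.6 and 79.5, *Etv4* at 31.2 and 48.4 and *Spred1* at 20.3 and 36.6 TPM in KO, and each pair enclosed or overlapped the wt pair, *Spred1* in wt being at 32.1 and 21.7. *Spry4* was at 26.2 and 50.4 TPM in KO, *Spred2* at 37.3 and 38.7 against 31.9 and 31.0, *Spred3* at 0.962 and 3.74 against 5.46 and 4.57, and *Etv1* at 1.63 and 1.86 against 2.22 and 1.71, none past the test. Neither were *Fgf4* (199 and 164 against 153 and 154 TPM), *Fgf5* (13.9 and 21.0 against 18.1 and 17.0), *Fgfr2* (16.1 and 22.5 against 22.5 and 21.5) and *Fgfr4* (6.16 and 7.98 against 6.94 and 6.81).

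The control at D15 took both sides. It was with wt for *Fgf1* (0.768 TPM), *Fgf13* (8.33) and *Fgf15* (4.97), and these 3 calls and that of *Fgf8* held with the control counted as wt. It was near KO for *Fgf17* (35.5 TPM) and *Fgf10* (3.62), and the calls of *Fgf17*, *Fgf10* and *Fgfr3* were then lost. Among genes not called, the control was also near KO for *Etv5* (136.0 TPM), *Fgf11* (5.84) and *Fgf3* (1.52), and near wt for *Spry1* (73.4). For several genes it was outside both genotypes, with 92.0 TPM of *Fgf8*, 55.9 of *Fgf5*, 128 of *Dusp4*, 102 of *Dusp6* and 99.3 of *Fgf4*, the first ones above and *Fgf4* below all wt and KO libraries of that day.

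Cell type markers differed between the same EB libraries. The summed level of 6 visceral endoderm markers was 596.7 to 688.7 TPM in wt, 21.1 to 44.3 in KO and 17.8 in the control. For 8 fibroblast markers it was 2682 to 3023 TPM in wt, 221.2 to 273.3 in KO and 123.1 in the control. For 6 cardiac muscle markers it was 126.3 to 160.2 TPM in wt, 32.7 to 43.7 in KO and 28.0 in the control. For 8 pluripotency markers it was 8898 to 9813 TPM in wt, 11694 to 14555 in KO and 8611 in the control, which for these lay on the side of wt. None of these markers was at 0 in wt or KO at D15. In KO 5 of 6 visceral endoderm, 7 of 8 fibroblast and 5 of 5 tested cardiac markers fell, and 2 of 8 pluripotency markers rose. At D0 the fibroblast markers summed to 21.4 to 27.1 TPM in wt and 11.6 to 13.5 in KO, with *Dcn* at 0 in KO, and the visceral endoderm markers to at most 9.06 TPM in every library, with *Ttr* at 0 in all of them. The cardiac markers summed to 38.2 to 45.2 TPM at D0 in wt, 6.99 to 8.54 in KO and 8.60 in the control, with 5 of the 6 markers under 1 TPM in each of these groups. The 7 primitive streak and mesoderm markers summed to 53.5 to 54.2 TPM at D15 in wt, 52.6 to 57.4 in KO and 157.5 in the control, which also had the highest *Fgf8*, and 2 of the 3 tested fell in KO, beside the lower *Fgf8*. Of the neural progenitor and endothelial markers tested at D15, 1 of 3 and 2 of 4 fell. The neural list summed to 174.4 to 190.9 TPM in wt, 132.9 to 230.8 in KO and 123.6 in the control, and the endothelial list to 120.3 to 123.5, 106.9 to 135.6 and 69.3. The part of these cell types in the FGF differences was not tested.

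The KO was then followed over the same days. In KO 10 of the 25 genes rose from D0 to D15 and 1 fell, where 20% of all tested genes rose and 7.66% fell. *Fgf15* rose in KO, from 6.61 and 5.32 to 38.1 and 32.2 TPM (log2 2.51 ± 0.25 (SE), edgeR adjusted p = 7.39e-05), while in wt it went from 4.16 and 2.96 to 6 and 6.29. *Fgf3* fell in KO from 13.2 and 16.6 to 1.53 and 1.46 TPM (log2 -3.36 ± 0.25 (SE), edgeR adjusted p = 2.09e-05). *Fgf5* rose from 0.0477 and 0.16 TPM, on 2 and 7 counts, to 13.9 and 21.0. *Fgf1* rose from 1.39 and 2.88 to 7.05 and 5.48 TPM, and the receptors *Fgfr2* (log2 1.06) and *Fgfr3* (log2 1.11) rose with calls that were lost without KO D0 replicate 2 or KO D15 replicate 2, and for *Fgfr2* also without KO D15 replicate 1 (edgeR adjusted p = 0.135 to 0.304 and 0.171 to 0.214). The *Fgfr3* rise was also lost when the control entered the fit as wt. *Spry4* (log2 5.06), *Dusp4* (log2 4.77), *Etv4* (log2 3.49), *Dusp6* (log2 2.90) and *Spry1* (log2 1.93) rose in KO as they did in wt.

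Whether the KO effect differed between the days was tested directly by the interaction of KO and day. It was called higher at D15 for 3 genes and lower for 6, where 6.62% and 10.5% of all tested genes were called. *Fgf17* (log2 2.69 ± 0.31 (SE), edgeR adjusted p = 0.00139), *Fgf15* (log2 1.90) and *Fgf13* (log2 1.18) gained in KO against wt between the days. *Fgfr3* went the other way most strongly (log2 -2.44 ± 0.55 (SE), edgeR adjusted p = 0.0156), from higher in KO at D0 to lower at D15. *Etv4* (log2 -2.15), *Fgf11* (log2 -1.97), *Spred1* (log2 -1.57), *Fgf3* (log2 -1.42) and *Dusp6* (log2 -1.34) also lost. *Spred1*, *Dusp6* and *Etv4* had separate pairs at D0 and overlapping pairs at D15. The *Etv4* interaction was lost without any one library other than KO D0 replicate 1 (edgeR adjusted p = 0.132 to 0.251), that of *Dusp6* without KO D0 replicate 2, wt D0 replicate 1 or wt D15 replicate 1 (0.110 to 0.141), and that of *Spred1* without wt D15 replicate 1 (0.103). With the control counted as wt, 2 interactions were called, those of *Fgf13* and *Fgf15*.

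E8 cells gave a second look at the KO, with other days, another deletion and another unit, so values of the lines are set side by side and not tested against each other. The methods describe E8 RNA-seq on other days than those in the labels. E8 replicates were closer than *Tsix*-stop ones, with a median absolute log2 difference over genes of 0.040 to 0.069 against 0.146 to 0.209. Among X-linked genes that start beyond *Kdm6a*, the median BL6 share of the allelic TPM was 19.5% to 21.7% in the wt libraries and 99.8% to 100% in the KO libraries, over 203 to 318 genes. For genes that start before *Kdm6a*, over 45 to 49 genes, it was 18.3% to 22.1% in wt and 19.6% to 22.0% in KO, as on autosomes (16.9% to 19.9%). The *cast* copies of the X-linked genes beyond *Kdm6a* were thus near 0 in the E8 KO. This loss goes with the deletion in every E8 KO library. The deletion and this loss thus cannot be told apart for any KO difference in E8, X-linked or autosomal. The allelic columns leaned to *cast* on all chromosomes, so these shares are read only against each other.

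At D7, 5 of the 25 tested genes rose in E8 KO and 3 fell, where 11.3% of all tested genes rose and 6.13% fell. *Fgf4* fell from 147 and 144 TPM in wt to 47.3 and 46.5 in KO (log2 -1.61 ± 0.04 (SE), limma adjusted p = 4.80e-12). *Fgf13* fell from 13.5 and 13.9 to 2.60 and 2.42 TPM (log2 -2.07 ± 0.07 (SE), limma adjusted p = 1.01e-10). It lies beyond *Kdm6a* on the X, and its *cast* TPM was 6.20 to 9.27 in the 4 wt libraries and listed at 0 in all 4 KO libraries. *Fgf15*, too, fell, from 26 and 25.6 to 10.0 and 9.61 TPM (log2 -1.31 ± 0.05 (SE), limma adjusted p = 3.27e-10). Replicates lay close together and apart from the other genotype in each case. *Fgf10* rose from 3.30 and 3.93 to 14.1 and 13.4 TPM (log2 1.68 ± 0.08 (SE), limma adjusted p = 1.91e-09), and *Fgf3*, which shares receptors with it, from 4.54 and 3.28 to 12.9 and 13.8 (log2 1.56). Both receptors that are low in wt rose, *Fgfr4* from 2.71 and 2.4 to 12 and 11.6 TPM (3.60-fold) and *Fgfr3* from 2.97 and 2.75 to 10.4 and 10.2 (2.93-fold). *Spred1* rose from 12.4 and 13.0 to 29.6 and 28.1 TPM (log2 1.13 ± 0.05 (SE), limma adjusted p = 1.79e-09).

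At D15, 10 genes rose in E8 KO and 1 fell, where 7.65% of all tested genes rose and 3.04% fell. The median log2 difference was 0.40 over the 25 genes and 0.09 over all genes. *Fgf8* was at 3.62 and 5.58 TPM in wt and 112 and 109 in KO (log2 4.33 ± 0.17 (SE), limma adjusted p = 6.22e-06), more than any other of the 25 genes. *Fgf5* was at 5.35 and 6.36 against 18.6 and 17.6 TPM, *Fgf3* at 2.33 and 3.27 against 16.9 and 16.7 and *Fgf10* at 1.54 and 1.38 against 9.60 and 10.2. All 3 were higher in KO, by log2 1.49, 2.24 and 2.15. *Fgf4* was again lower, at 67.8 and 68.3 against 175 and 181 TPM (log2 -1.38 ± 0.04 (SE), limma adjusted p = 3.08e-11). Of the receptors, *Fgfr2* rose from 3.18 and 3.71 to 13.8 and 14 TPM (log2 1.75) and *Fgfr3* from 1.81 and 1.97 to 5.77 and 5.03 (log2 1.15).

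Feedback genes rose in E8 KO at D15 as well. *Dusp6* went from 25.7 and 27.6 TPM in wt to 68.4 and 67.5 in KO (log2 1.32 ± 0.04 (SE), limma adjusted p = 2.08e-10) and *Dusp4* from 42.8 and 47.6 to 104 and 102 (log2 1.17 ± 0.05 (SE), limma adjusted p = 1.45e-09). *Spred1* went from 11.6 and 10.7 to 28.4 and 28.2 TPM (log2 1.27 ± 0.05 (SE), limma adjusted p = 1.17e-09), and *Spry2* from 24.3 and 25.9 to 51.7 and 52.7 (log2 1.03 ± 0.05 (SE), limma adjusted p = 6.42e-09). The groups were separate for all 4, and at D7 *Dusp6* (32.0 and 32.9 against 53.0 and 53.7 TPM), *Dusp4* (38.8 and 38.2 against 69.9 and 71.1) and *Spry2* (32.6 and 29.6 against 62.5 and 62.5) were higher in KO by less than 2-fold on the log2(TPM + 1) scale, *Spry2* only just (log2 0.98). The other members of the group were not called. *Spry4* was at 30.7 and 31.5 in wt and 37.8 and 38.7 TPM in KO at D15, *Spry1* at 32.0 and 34.3 and 44.0 and 44.1, *Spred2* at 31.5 and 33.4 and 31.6 and 31.4, and *Spred3* at 1.08 and 1.54 and 3.24 and 2.62. *Spred3* was higher in KO with separate pairs on both days and stayed under 2-fold only on the log2(TPM + 1) scale (log2 0.86 at D7 and 0.77 at D15), its mean TPM being 2.12 in wt and 4.65 in KO at D7 and 1.31 and 2.93 at D15. It passed the E8 filter only through KO libraries, so this difference is not independent of the filter. *Etv4* was lower in KO at D15 (22.8 and 22.5 against 31.9 and 34.9 TPM) and higher at D7 (32.8 and 32.0 against 22.5 and 20.6), with the interaction called (log2 -1.11 ± 0.08 (SE), limma adjusted p = 3.77e-07). *Etv5* was at 86.8 and 87.4 TPM in wt and 55.5 and 55.0 in KO at D7, and at 64.7 and 68.6 and 55.9 and 57.2 at D15, and *Etv1* at 5.66 and 5.14 and 4.42 and 4.02 at D7 and 4.18 and 4.58 and 3.78 and 3.92 at D15. At D7 the KO differences of *Spry4* (32.6 and 31.8 TPM in wt, 31.7 and 30.7 in KO), *Spry1* (32.8 and 32.4, 35.1 and 34.1), *Spred2* (30.3 and 29.0, 27.0 and 26.4) were all under 2-fold, and *Spred3* was at 2.26 and 1.98 in wt and 4.65 and 4.65 in KO. Without wt D15 replicate 1 the *Spry2* difference at D15 was log2 0.98 and so under 2-fold.

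**Figure D3:**
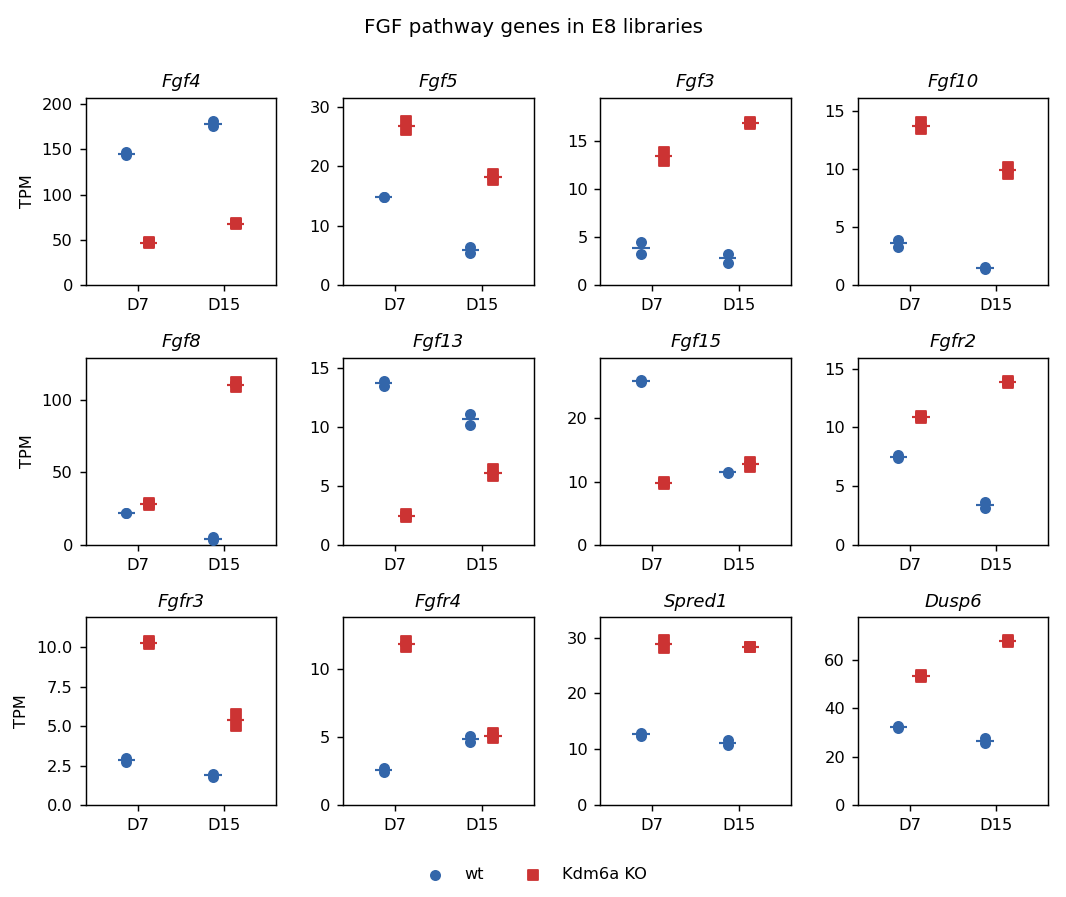
TPM of 12 genes in the E8 libraries at D7 and D15 on linear axes from 0, 1 point per library (blue circles wt, red squares KO), with a short line at the mean of each pair. *Fgf4* and *Fgf13* are lower in KO on both days, *Fgf3*, *Fgf10*, *Fgfr3*, *Spred1* and *Dusp6* are higher on both, and *Fgf8* is high in the D15 KO libraries alone.

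The remaining E8 values are of genes not called on the day given. *Fgf17* was at 21.6 and 22.0 TPM in wt and 10.5 and 12.1 in KO at D7, and at 10.9 and 11.1 and 12.6 and 11.4 at D15. *Fgf1* was at 1.73 and 1.70 and 0.318 and 0.436 TPM at D7 and at 3.08 and 3.32 and 1.32 and 1.23 at D15, lower in KO by less than 2-fold on the log2(TPM + 1) scale. *Fgf11* was at 2.30 and 2.11 and 2.00 and 1.97 TPM at D7, and at 4.35 and 4.77 and 3.70 and 3.71 at D15. *Fgfr1* was at 35.7 and 33.7 and 37.7 and 36.1 TPM at D7, and at 32.9 and 35.1 and 48.5 and 48.3 at D15, the highest of the receptors here too. *Fgfr2* was at 7.41 and 7.62 and 11 and 10.8 TPM, *Fgf5* at 14.8 and 14.8 and 27.6 and 26, and *Fgf8* at 22.2 and 22.0 and 27.6 and 28.7 in wt and KO at D7.

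Between D7 and D15, few of all tested genes were called in E8 wt cells. None of the 25 genes rose and 3 fell, where 0.554% of all tested genes rose and 0.811% fell. The fallers were *Fgf8* (log2 -2.07 ± 0.17 (SE), limma adjusted p = 0.000392), *Fgf5* (log2 -1.21) and *Fgf15* (log2 -1.10), the last from 26 and 25.6 to 11.6 and 11.4 TPM. In E8 KO 2 genes rose and 1 fell, where 3.36% and 2.69% of all tested genes did. *Fgf8* rose in KO (log2 1.93 ± 0.17 (SE), limma adjusted p = 0.000223), as did *Fgf13*, from 2.60 and 2.42 to 5.82 and 6.43 TPM (under 2-fold without replicate 2 of either KO day, at log2 0.96 and 0.98), and *Fgfr4* fell to 5.27 and 4.90, next to the wt level at D15 (4.62 and 5.07). The interaction of KO and day was called higher at D15 for 4 genes and lower for 2, where 3.89% and 3.34% of all tested genes were called. *Fgf8* led (log2 4 ± 0.23 (SE), limma adjusted p = 7.38e-05), with *Fgf15* (log2 1.44, at 13.0 and 12.4 TPM in KO at D15), *Fgf13* (log2 1.36, at 10.2 and 11.1 TPM in wt at D15) and *Fgfr2* (log2 1.26) on the same side and *Fgfr4* (log2 -1.79) and *Etv4* on the other.

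The labels of E8 give differentiation for 7 and 15 days, and the markers of these libraries differ from those of *Tsix*-stop EBs. In E8 wt the 8 pluripotency markers summed to 13288 to 13346 TPM at D7 and 16854 to 17685 at D15, where *Tsix*-stop wt had 13255 to 13774 at D0 and 8898 to 9813 at D15. The sum in E8 wt at D15 was thus not below that of ES cells, but single markers were. *Pou5f1* was at 1865 to 2044 TPM in E8 wt at D15 and 2283 to 2333 in *Tsix*-stop wt at D0, and *Sox2* at 427 to 449 and 797 to 865. *Nanog* was at 638 to 667 and 1193 to 1291 TPM, and *Zfp42* at 390 to 405 and 1051 to 1259. E8 TPM were deposited and *Tsix*-stop TPM computed here, so levels of the lines may differ in scale. In E8 KO the 8 markers summed to 4641 to 4761 TPM at D7 and 7907 to 8123 at D15, beside the lower *Fgf4*, and 4 of 8 and 1 of 8 fell. The 8 fibroblast markers summed to 37.6 to 37.8 TPM in wt and 52.1 to 53.0 in KO at D7, and to 27.8 to 29.7 and 62.5 to 65.3 at D15, and on each day 5 of the 6 tested rose in KO and 1 fell. The 6 visceral endoderm markers summed to 9.19 to 10.3 TPM in wt at D7 and 6.55 to 6.87 at D15, against 1089 to 1092 and 232.7 in KO, and 6 of 6 rose in KO on each day. *Ttr*, *Cubn* and *Apob*, under 1 TPM in wt on both days, passed the filter only through KO libraries, as did *Col1a1*, *Col1a2*, *Col3a1* and *Postn* of the fibroblast list. The 7 primitive streak and mesoderm markers summed to 15.3 to 16.9 TPM in wt and 150.2 to 154.8 in KO at D15, when 6 of 6 tested rose, beside the rise of *Fgf8* and *Fgf5*. At D7 2 of 6 rose and 1 fell. The neural list summed to 120.3 to 124.4 TPM in wt and 75.4 to 78.3 in KO at D7, and to 81.9 to 85.8 and 73.9 to 74.9 at D15. For the cardiac list it was 22.7 to 24.3 and 10.0 to 10.7, then 11.6 to 13.7 and 14.2 to 16.0. For the endothelial list it was 76.5 to 79.9 and 38.6 to 40.1, then 96.6 to 108.7 and 94.0 to 95.3. Of those tested, 1 neural marker rose and 1 cardiac and 1 endothelial fell at D7. At D15 2 neural, 1 cardiac and 1 endothelial rose. Apart from *Emcn*, none of the markers was at 0, and their part in the FGF differences was not tested. In E8 the median log2 difference of all genes was 0.10 at D7. With libraries rescaled to the median gene, the split of calls over all genes changed at D7 from 1407 higher and 763 lower to 1041 and 1149, and at D15 from 953 and 379 to 793 and 550. The 25 genes then gave 4 higher and 5 lower at D7, without *Spred1*, and 9 and 1 at D15, without *Spry2*.

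**Figure D4:**
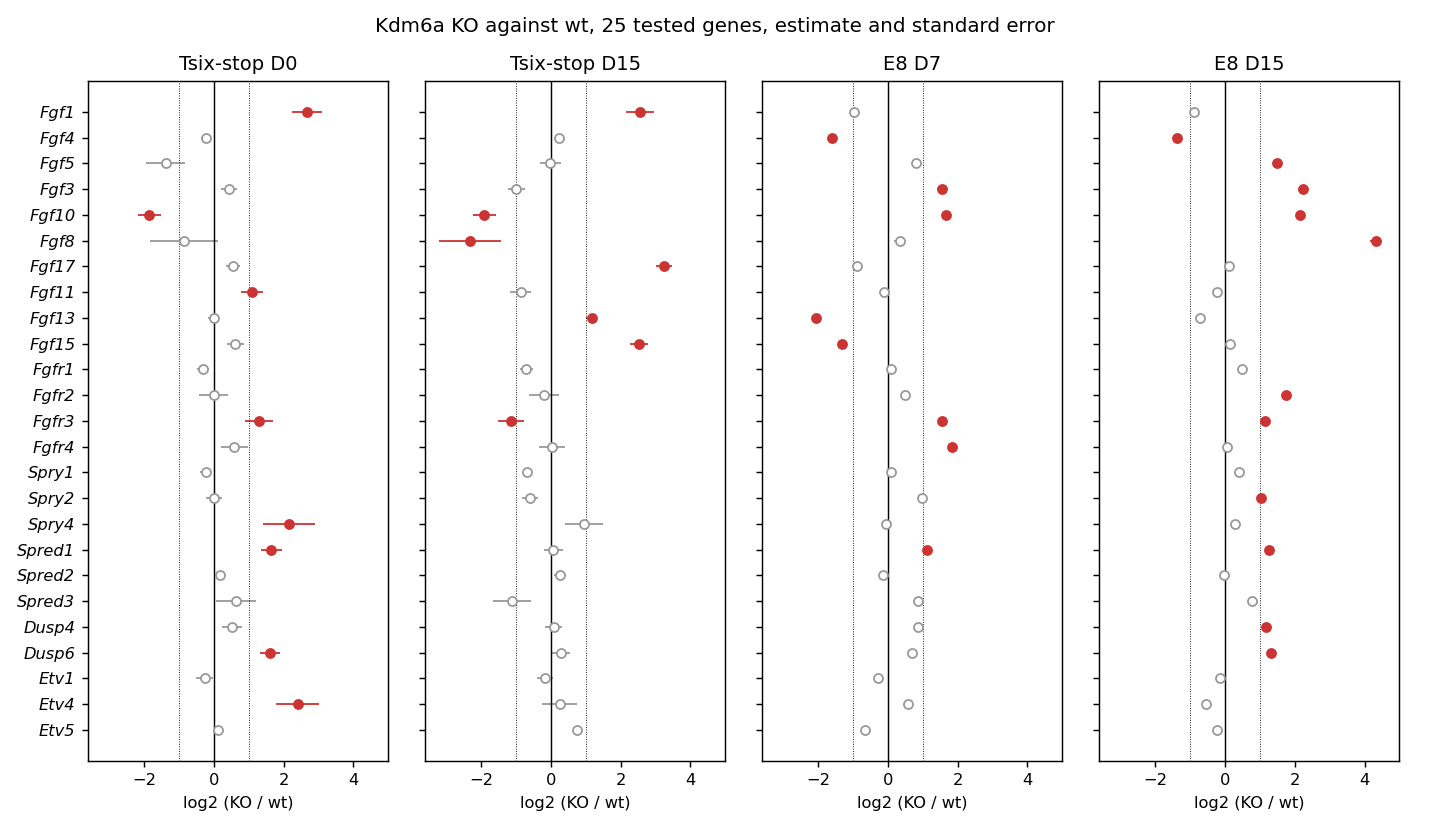
Log2 difference between *Kdm6a* KO and wt for the 25 tested genes in *Tsix*-stop at D0 and D15 (edgeR) and in E8 at D7 and D15 (limma on log2(TPM + 1)), with bars of 1 standard error and dotted lines at 2-fold. Filled red points are those called, 8 and 7 in *Tsix*-stop and 8 and 11 in E8, and *Fgf10*, *Fgf8* and *Fgf13* lie on opposite sides of 0 in the *Tsix*-stop and E8 panels at D15.

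Set side by side at D15, 12 of the 25 tested genes had KO pairs on opposite sides of the wt pair in the lines. The share over all tested genes is not given here, so this count is not read as particular to the FGF genes. Among the 12 are the following. *Fgf10* was lower in *Tsix*-stop KO (log2 -1.90) and higher in E8 KO (log2 2.15), *Fgf8* likewise (log2 -2.32 and 4.33), and *Fgfr3* likewise (log2 -1.14 and 1.15). *Fgf13* was higher in *Tsix*-stop KO (log2 1.18) and lower in E8 KO (log2 -0.71, under 2-fold). *Spred1* was higher in KO in E8 at both days and in *Tsix*-stop ES cells at D0, but not in *Tsix*-stop at D15, where the pairs overlapped (log2 0.08, edgeR adjusted p = 0.851). With the control (31.7 TPM) counted as wt the D0 difference was log2 0.46 (edgeR adjusted p = 0.828).

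*Fgf3*, *Fgf4* and *Fgf15* are neighbours on chromosome 7, within 62.9 kb (chr7:144838083-144900953, GRCm38), in this order and on the same strand. In none of the comparisons of KO with wt were all 3 called in the same direction, though some neighbours moved the same way. In E8 KO at D7 *Fgf4* (log2 -1.61) and *Fgf15* (log2 -1.31) both fell while *Fgf3* rose (log2 1.56). In *Tsix*-stop wt from D0 to D15 *Fgf3* (log2 -1.94) and *Fgf4* (log2 -1.43) both fell, and *Fgf15* was not called (log2 0.61). In *Tsix*-stop KO at D15 *Fgf15* was higher (log2 2.52), *Fgf4* was near wt (log2 0.25) and *Fgf3* was lower by just under 2-fold (log2 -0.99). In E8 KO at D15 *Fgf3* was higher (log2 2.24), *Fgf4* lower (log2 -1.38) and *Fgf15* near wt (log2 0.13). Counting was not stated to use strand, and *Fgf15* shares 24.9% of its exonic bases with a gene on the opposite strand (*Gm26793*), as *Spry1* does 24.4% (*Gm42922*) and *Fgfr3* 13.9% (*G630022F23Rik*), so reads of these partners cannot be told apart.

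Reads that cover a SNP gave the parental origin of the *Tsix*-stop RNA, with 9210225 to 12095548 such reads per library and Wilson 95% intervals that cover counting error only. Shares below are those of the parent that is not *cast*. Their median was 50% to 51.6% over autosomal genes. *Fgf1*, one of the genes that rose in KO, was read nearly all from that parent, at 94.9% (244 of 257 reads, interval 91.5% to 97.0%) and 96.4% (162 of 168 reads, interval 92.4% to 98.4%) in KO at D15, and at 77.8% (35 of 45 reads, interval 63.7% to 87.5%) and 93.1% (27 of 29 reads, interval 78.0% to 98.1%) in wt. *Fgf15* leaned to it in every library, at 73.3% and 65.7% in KO and 58.5% and 73.3% in wt at D15. *Fgfr3* leaned to *cast* in KO and in the unedited control. At D15 its share was 21.4% (6 of 28 reads, interval 10.2% to 39.5%) and 17.8% (13 of 73 reads, interval 10.7% to 28.1%) in KO, 33.7% (29 of 86 reads, interval 24.6% to 44.2%) in the control and 41.4% and 46.8% in wt. At D0 it was 12% (3 of 25 reads) in the control and 23.7% (9 of 38 reads, interval 13.0% to 39.2%) in KO replicate 1, and the other D0 libraries had under 20 such reads. *Spred1* was near balance, at 47.0% and 46.7% in wt and 45.0% and 49.8% in KO at D0. *Fgf17* had under 20 such reads in every library.

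For X-linked *Fgf13* the share bears on the inactive X, which in this line is the X that is not *cast*. It was 56.5% (39 of 69 reads, interval 44.8% to 67.6%) and 39.4% (26 of 66 reads, interval 28.5% to 51.5%) in wt at D15 and 45.0% (67 of 149 reads, interval 37.2% to 53.0%) and 54.8% (68 of 124 reads, interval 46.1% to 63.3%) in KO, so that the intervals of wt and KO overlapped. In the control it was 32.8% (19 of 58 reads, interval 22.1% to 45.6%), which overlapped both wt intervals and that of KO replicate 1 but lay below that of KO replicate 2. The median over X-linked genes at D15 was 29.1% and 31.6% in the wt libraries, 32.9% in the control and 45.7% and 41.3% in the KO libraries. *Etv1* lies on chromosome 12, where the median share over genes was 35.3% to 39.0% in wt and 34.9% to 38.2% in the control but 53.0% to 58.5% in KO. Its own share at D0 was 15.6% and 15.1% in wt and 40.5% and 28.4% in KO, with the control at 14.6% (29 of 198 reads, interval 10.4% to 20.2%). The share in wt was 33.6% and 43.9% at D15 and that in KO 45.7% and 45.7%, with overlapping intervals, and the control was at 32.9% (28 of 85 reads, interval 23.9% to 43.5%). The difference in the median thus covered the chromosome and not this gene alone. In E8 the median BL6 share of the allelic TPM on chromosome 12 was 11.8% to 13.3% in wt and 31.0% to 34.0% in KO. *Etv1* had 10.8 to 14.9 TPM from *cast* in the E8 wt libraries and 3.61 to 4.62 in KO. Its TPM from BL6 was 1.23 to 1.64 in wt and 2.24 to 2.83 in KO. The cause of these allelic differences was not tested.

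Beyond the 38 genes, 65 further genes of the pathway were read in 4 lists. The 23 adaptors and kinases of the RAS-ERK cascade all passed the filter, and none was called in any of the 4 comparisons of KO with wt. The 9 FGF co-receptors and modulators gave 6 lower and 0 higher of 7 tested in *Tsix*-stop at D15, and 3 higher and 0 lower of 7 in E8 on each day. Heparan sulphate genes gave 5 lower and 0 higher of 18 in *Tsix*-stop at D15, and 4 higher and 0 lower of 18 in E8 on each day. Other ERK-induced genes gave 0 higher and 2 lower of 13 in *Tsix*-stop at D15, and in E8 4 higher and 0 lower of 14 at D7 and 9 higher and 1 lower of 14 at D15. At D0 these 3 lists gave 0 higher and 1 lower, 2 higher and 1 lower, and 1 higher and 2 lower. Over all tested genes the shares higher and lower in KO were 3.09% and 4.98% in *Tsix*-stop at D0, 3.81% and 11.1% at D15, 11.3% and 6.13% in E8 at D7, and 7.65% and 3.04% at D15.

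By gene, *Flrt3*, a membrane partner of FGF receptors, was at 35.8 and 24.0 TPM in wt and 5.07 and 10.1 in *Tsix*-stop KO at D15 (log2 -1.98 ± 0.32 (SE), edgeR adjusted p = 0.00246), with the control at 32.1, within wt. In E8 at D7 it was at 4.80 and 4.79 TPM in wt and 69.5 and 68.1 in KO (log2 3.59 ± 0.05 (SE), limma adjusted p = 1.26e-13). *Klb*, the co-receptor of endocrine FGFs, rose in E8 KO at D7 from 2.19 and 1.88 to 30.9 and 30.8 TPM. *Sdc3*, a heparan sulphate proteoglycan, went from 64.0 and 62.2 TPM in wt to 11.8 and 18.3 in *Tsix*-stop KO at D15 (log2 -2.07 ± 0.21 (SE), edgeR adjusted p = 0.000429), and the other way at D0, from 8.54 and 6.69 to 17.8 and 15.8 (log2 1.02). The unedited control was at 14.9 TPM of *Sdc3* at D15, between the KO libraries, and at 26.6 at D0, above both. At D0 the transcription factor gene *Myc* rose from 17.9 and 27.1 to 42.0 and 63.6 TPM, with the control at 67.1. The early response gene *Ier3* fell from 22.5 and 16.4 to 8.91 and 6.51 TPM, with the control near KO at 9.40, and *Gpc3*, a glypican, from 114 and 83.5 to 43.1 and 45.7, with the control near wt at 78.3. In E8 at D15 *Fos* rose from 3.78 and 4.42 to 26.2 and 25.3 TPM and the phosphatase gene *Dusp2* from 0.477 and 0.566 to 7.79 and 8.11. *Dusp2* passed the filter only through these KO libraries, so its rise is not independent of the filter. *Dusp9*, an X-linked ERK phosphatase gene, fell from 383 and 399 to 142 and 144 TPM (log2 -1.44 ± 0.04 (SE), limma adjusted p = 3.36e-11), with its *cast* TPM at 148.0 and 149.9 in wt and listed at 0 in both KO libraries of that day.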

How the data were processed

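Polyadenylated RNA was sequenced with an unstranded kit. For *Tsix*-stop the authors deposited estimated counts per gene, made with TopHat and bowtie2 on mm10, and counts of reads that cover 129 or *cast* SNPs. For E8 the authors deposited TPM for the diploid transcript and for each allele. The submitters' processing notes name Bowtie2 2.4.5 and TopHat2 2.1.1, and the annotation is not given in the sources used here. Estimated counts (7.10% not whole) were rounded, and *Tsix*-stop TPM were computed from them with GENCODE exon lengths. Total counts were 51091152 to 68796179 per *Tsix*-stop library, the E8 depth is unknown, and intervals and floors cover counting error only.

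Genes with at least 2.5 CPM in 2 of 8 libraries were tested with edgeR 4.0.16 (quasi-likelihood, TMM, robust), and E8 genes with at least 2.5 TPM in 2 libraries with limma 3.58.1 (trend, robust) on log2(TPM + 1), in R 4.3.3. Wt and KO libraries of each line were fitted together, without the CRISPR control, and a gene was called at a Benjamini-Hochberg adjusted p of at most 0.1 and 2-fold. With 2 libraries against 2, an exact permutation test could not reach the threshold and was not used. On simulated data for the D15 comparisons, edgeR called 96% of genes changed by log2 1.5 and 100% of those changed by log2 3 (13121 genes). Limma called 100% of both (12452 genes). Every simulated gene had the same spread within a line. These shares therefore do not hold for genes whose replicates differ more, such as *Fgf8*, *Spry4* and *Etv4* in *Tsix*-stop KO.

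The members and lists were chosen with earlier results of these data known. Members are described in every library if called in *Tsix*-stop or at a mean of at least 5 TPM in a group, which took in all 25 tested genes, and further pathway genes are named if among the 2 largest rises or falls of a KO comparison. Allelic shares needed 20 SNP reads. The alternatives were other filters, thresholds, normalizations, pseudocounts, scalings and allele columns, DESeq2 1.42.0, a replicate block, the control added to wt, and each library left out. The control files are named as KO, and the labels, which call them controls, were followed.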

Additional observations from a re-analysis of the deposited data

Results flagged for a closer look

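The KO effect differed between days by the interaction test. In *Tsix*-stop (edgeR, D15 minus D0) the log2 difference of the KO effects was 2.69 for *Fgf17*, 1.90 for *Fgf15*, 1.18 for *Fgf13*, -1.34 for *Dusp6*, -1.42 for *Fgf3*, -1.57 for *Spred1*, -1.97 for *Fgf11*, -2.15 for *Etv4* and -2.44 for *Fgfr3*. In E8 (limma, D15 minus D7) it was 4.0 for *Fgf8*, 1.44 for *Fgf15*, 1.36 for *Fgf13*, 1.26 for *Fgfr2*, -1.11 for *Etv4* and -1.79 for *Fgfr4*.

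At D15 both KO libraries lay on opposite sides of both wt libraries in *Tsix*-stop and E8 for 12 of the 25 tested genes. Of these genes, 8 were called in at least 1 line. This difference between lines was not tested, and its share over all tested genes is not given here. The log2 difference of KO from wt in *Tsix*-stop and in E8 was 2.56 and -0.88 for *Fgf1*, 0.25 and -1.38 for *Fgf4*, -0.99 and 2.24 for *Fgf3*, and -1.90 and 2.15 for *Fgf10*. It was -2.32 and 4.33 for *Fgf8*, 1.18 and -0.71 for *Fgf13*, -1.14 and 1.15 for *Fgfr3*, and -0.59 and 1.03 for *Spry2*. For the 4 genes called in neither line it was -0.71 and 0.50 for *Fgfr1*, -0.67 and 0.40 for *Spry1*, -1.11 and 0.77 for *Spred3*, and 0.76 and -0.23 for *Etv5*. Groups of 2 libraries were too small to look for single outlying libraries.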

How the results depend on the processing

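Of 1438 values of called genes recomputed under the alternatives, 1355 kept direction and call, 83 lost the call and 0 reversed. Of 85 called gene values, 28 lost the call under at least 1 alternative. With the CRISPR control as wt the count of called members went from 8 to 0 at D0 in *Tsix*-stop, from 7 to 4 at D15 and from 9 to 2 for the interaction. An adjusted p of at most 0.05 left 5 at D0. With no minimum fold the counts were 13 at D15, 18 for KO over time, and in E8 21 at D7, 22 at D15, 22 for wt over time, 21 for KO over time and 18 for the interaction. With log2(TPM + 0.1) E8 wt over time gave 6. The cause of these changes was not tested, other than that the settings loosen or tighten the threshold.

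Leaving out each library in turn gave 4 to 8 called members at D0 and 5 to 8 at D15 in *Tsix*-stop, 18 to 19 for wt over time, 9 to 15 for KO over time and 6 to 10 for the interaction. In E8 it gave 8 to 9 at D7, 10 to 11 at D15, 3 to 4 for wt over time, 2 to 3 for KO over time and 6 to 7 for the interaction. The lone library of a group is then assumed to vary like the other groups. The labels' replicate numbers were not treated as pairs: deviations of same-numbered libraries correlated at -0.16 to 0.20 in *Tsix*-stop and -0.16 to 0.12 in E8. The 0.20 was that of the *Tsix*-stop KO libraries between D0 and D15. *Kdm6a* in KO was at 55.6 TPM at D0 and 41.6 at D15 in replicate 1, and at 21.2 and 12.8 in replicate 2. Whether a number stands for the same KO clone on both days thus cannot be told. With the replicate block the counts were 8, 8, 19, 13 and 10 in *Tsix*-stop (D0, D15, wt over time, KO over time, interaction) and 8, 11, 3, 3 and 6 in E8. Depth limits the *Tsix*-stop ES cell values of *Spry4*, *Fgf1* and *Fgf5*, which rest on few counts.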
